A study of Mus musculus with 8 samples.

Results

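The genes described here are 33 genes whose transcripts mark DNA replication and cell division in mouse splenic T cells. They were given by name, 14 for S phase and 19 for mitosis. Each was measured by the array probe that matched a RefSeq transcript of the gene and had the highest mean log2 processed signal over the 8 arrays. All 33 had such a probe among the 15140 genes tested, and 32 were well above background on all 8 arrays. Aurkb was well above background on 7 arrays and fell short of it on WT stimulated replicate 2.

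RNA came from splenic T cells of Lsp1-deficient mice (Lsp1-/-, called KO here) and of wild-type C57BL/6 mice (Lsp1+/+, WT), and was hybridised to one-colour Agilent arrays. KO and WT cells were stimulated with antibodies against CD3 and CD28 for 6 h, and KO and WT cells in medium were the unstimulated groups, with 2 arrays in each of the 4 groups. Mice were aged 8 to 12 weeks with age and sex matched between genotypes, the KO mice had been backcrossed onto C57BL/6 for 10 generations, and all RNA integrity numbers were above 9.5. The deficiency affects every cell of the animal, not T cells alone, and the sources used here do not give the method of T cell isolation. Nothing in the labels says whether replicate arrays hold different animals, and p-values therefore measure only how far these samples spread, possibly for technical reasons.

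Values are log2 of an array's processed signal minus the 75th percentile of that array, so a value compares arrays for 1 probe and not the levels of different genes. Differences were tested with limma over all 15140 genes, with Benjamini-Hochberg adjustment and a threshold of 0.05, and ± gives the standard error of a difference between 2 and 2 arrays. An exact permutation test of 2 against 2 arrays cannot go below p = 0.333, so none was used. The share of probes above background ran between 58.4% and 69.3% per array. Lsp1 measured 3.68 and 3.65 on the KO stimulated arrays, against 7.05 and 6.98 on the WT stimulated arrays. In medium it measured 3.64 and 3.48 on the KO arrays, against 7.47 and 7.23 on the WT arrays, which matched the labels. All 18 T cell markers measured were well above background on all 8 arrays. So were all 16 B cell and all 10 natural killer cell markers measured, and 13457 of all 15140 genes. That count therefore does not set T cells apart. KO replicate 2 stood apart from the other arrays in both conditions, as described below, and results are given with and without it. In bulk RNA, more cells of a kind and more RNA per cell cannot be told apart.

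Before DNA replication, Cdc6 and Cdt1 load the MCM helicase onto origins, and the GINS complex joins it when the helicase becomes active. E2F factors switch on many of these genes as a cell passes from G1 into S phase. Genes for mitosis follow later and are commonly held down in resting cells by the DREAM complex, which binds a short element called the CHR. Naive T cells are resting cells that enter the cell cycle about a day after their antigen receptor is engaged, so early hours of stimulation precede most replication.

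The RefSeq promoter table (build GRCm38.p6) held 26 of the 33 genes, 11 for S phase and 15 for mitosis. Each promoter covers 300 bases, 250 before and 50 after the start of the gene. Promoters were searched on both strands for E2F letters (TTTCCCGC, TTTGGCGC, TTTGCCGC or TTTCGCGC), CHR letters (TTTGAA or TTCGAA) and the CCAAT box (CCAAT). E2F letters were present for 7 of 11 S phase genes and 1 of 15 mitosis genes, against 2.26% of all 32851 promoters. CHR letters were present for 2 of 11 S phase genes and 12 of 15 mitosis genes, against 19.2% of all promoters. CCAAT was present for 9 of 11 S phase and 13 of 15 mitosis genes, against 37.4% of all promoters. Mcm7 and Uhrf1 had 2 promoters each and were counted if either held the letters, while the shares of all promoters count each promoter. A match to these letters is a description and not a binding site.

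The 5 promoters below belong to genes that the results turn on: Cdc6 and Ube2c had wide gaps between the KO arrays, Mcm2 and Cenpa had the clearest stimulation responses, and Cdk1 was the mitosis gene with letters of both kinds. Each runs 5′ to 3′ on the strand of its gene, and capitals mark the E2F, CHR and CCAAT letters, on either strand, so that a match on the other strand is printed as its reverse complement. Cdc6 lies at chr11:98907901-98908200 (plus strand), Mcm2 at chr6:88898731-88899030 (minus strand) and Cdk1 at chr10:69352863-69353162 (minus strand). Ube2c lies at chr2:164769679-164769978 (plus strand) and Cenpa at chr5:30666636-30666935 (plus strand).
Cdc6: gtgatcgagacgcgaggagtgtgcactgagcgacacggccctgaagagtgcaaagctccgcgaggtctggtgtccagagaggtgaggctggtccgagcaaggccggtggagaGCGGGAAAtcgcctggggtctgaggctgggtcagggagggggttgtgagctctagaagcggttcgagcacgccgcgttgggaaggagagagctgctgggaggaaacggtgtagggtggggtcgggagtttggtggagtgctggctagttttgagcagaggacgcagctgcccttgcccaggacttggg
Mcm2: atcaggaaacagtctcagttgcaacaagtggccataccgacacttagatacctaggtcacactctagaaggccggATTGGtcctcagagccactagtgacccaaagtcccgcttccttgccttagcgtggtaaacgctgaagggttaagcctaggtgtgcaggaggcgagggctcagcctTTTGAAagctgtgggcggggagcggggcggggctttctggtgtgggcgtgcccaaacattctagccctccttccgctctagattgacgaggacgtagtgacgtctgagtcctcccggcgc
Cdk1: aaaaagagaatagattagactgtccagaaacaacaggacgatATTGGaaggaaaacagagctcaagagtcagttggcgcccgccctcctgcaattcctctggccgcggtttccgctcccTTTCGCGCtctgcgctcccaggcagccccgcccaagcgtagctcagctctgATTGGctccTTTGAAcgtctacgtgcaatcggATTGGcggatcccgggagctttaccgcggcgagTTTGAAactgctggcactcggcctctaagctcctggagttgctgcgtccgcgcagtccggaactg
Ube2c: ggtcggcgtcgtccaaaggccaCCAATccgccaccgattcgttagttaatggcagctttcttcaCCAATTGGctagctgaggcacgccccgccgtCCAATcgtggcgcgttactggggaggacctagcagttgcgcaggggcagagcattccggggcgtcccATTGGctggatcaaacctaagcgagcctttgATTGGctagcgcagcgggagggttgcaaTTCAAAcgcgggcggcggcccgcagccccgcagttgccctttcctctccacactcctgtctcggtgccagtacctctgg
Cenpa: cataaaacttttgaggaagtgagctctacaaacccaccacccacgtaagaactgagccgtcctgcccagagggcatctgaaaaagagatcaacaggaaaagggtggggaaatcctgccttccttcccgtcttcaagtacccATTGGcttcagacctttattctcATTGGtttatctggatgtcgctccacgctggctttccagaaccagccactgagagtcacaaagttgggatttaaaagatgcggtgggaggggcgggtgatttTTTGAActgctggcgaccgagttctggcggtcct
The E2F letters began 138 bases upstream of the start in Cdc6 and 131 bases upstream in Cdk1. The CHR letters began 70 bases upstream in Mcm2, 71 and 15 bases upstream in Cdk1, 29 bases upstream in Ube2c and 17 bases past the start in Cenpa. In Ube2c the pair at 186 and 183 bases upstream overlaps, being CCAAT on each strand.

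The first question was how these genes responded to 6 h of stimulation. Most did not pass the test in either genotype. Of the 33 genes, 0 were called in KO cells and 1, Cenpa, was lower in WT cells. This fit did not pair arrays by replicate number, and both counts were larger with a replicate block, as given below. With that block set within genotype, 2 were called in KO cells (Mcm2 higher, Cenpa lower) and 3 in WT cells. The counts of the main fit therefore hold only for unpaired arrays. Cenpa encodes the histone H3 variant of centromeres. Among all genes, 5.8% were called higher and 2.25% lower in KO cells, and 6.38% higher and 3.88% lower in WT cells. At an unadjusted p below 0.05 the count was 2 of 33 in each genotype, against 25.4% of all genes in KO cells and 29.5% in WT cells. The test took 1 spread per gene from all 4 groups, and the KO arrays lay far apart for many of these genes. The median residual SD was 0.27 for S phase genes and 0.63 for mitosis genes, against 0.18 for all genes. A response of a given size was therefore harder to call for them than for most genes, in WT cells too.

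Cenpa measured 1.96 and 2.24 on the KO stimulated arrays and 2.62 and 2.94 on the KO medium arrays. In WT cells it measured 1.81 and 1.87 on the stimulated arrays and 2.60 and 2.63 on the medium arrays. Stimulated and medium arrays did not overlap in either genotype. The log2 difference was -0.67 ± 0.16 in KO cells (adjusted p = 0.0550) and -0.77 ± 0.16 in WT cells (adjusted p = 0.0345). The WT call was lost when any of the 4 WT arrays was left out, with an adjusted p of up to 0.199.

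Mcm2, a subunit of the replicative helicase, lay at the threshold in the other direction. It measured 2.54 and 2.92 on the KO stimulated arrays and 2.04 and 2.31 on the KO medium arrays. In WT cells it measured 2.71 and 2.74 on the stimulated arrays and 2.04 and 2.0 on the medium arrays. Every stimulated array was above every medium array of its genotype. The log2 difference was 0.56 ± 0.16 in KO cells (adjusted p = 0.102) and 0.70 ± 0.16 in WT cells (adjusted p = 0.0504).

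**Figure D1:**
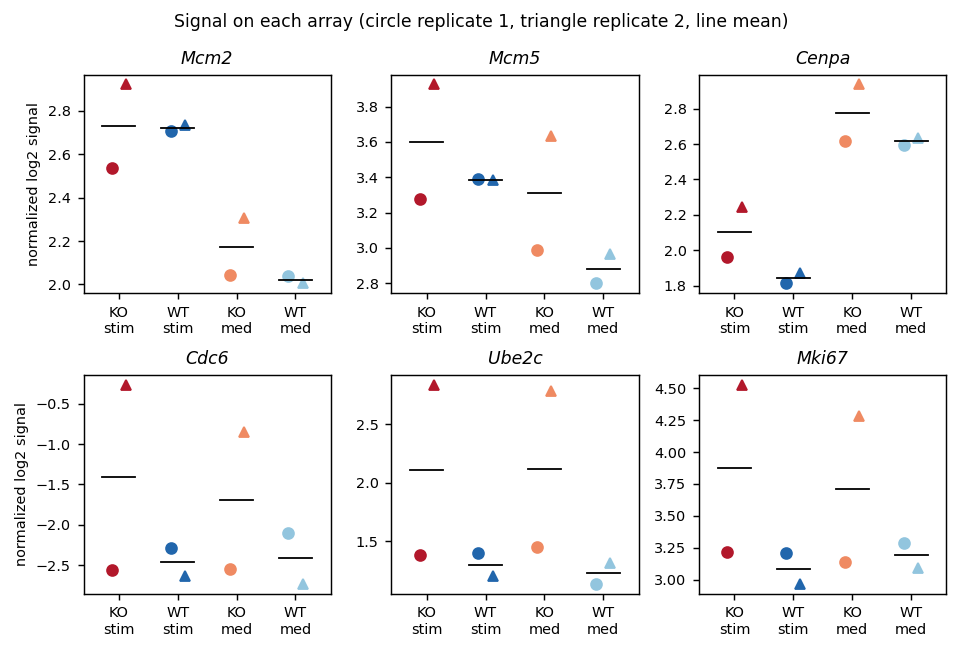
Normalized log2 signal of 6 genes on each of the 8 arrays, by group (KO stimulated, WT stimulated, KO medium, WT medium); circles are replicate 1, triangles replicate 2 and lines group means, and each panel has its own vertical scale. Mcm2 lies higher and Cenpa lower on the stimulated arrays, while Cdc6, Ube2c and Mki67 are high on the triangles of both KO groups.

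The other helicase subunits did not share a direction. Mcm5 measured 3.28 and 3.92 on the KO stimulated arrays and 2.99 and 3.64 on the KO medium arrays, which overlapped. Between KO arrays of equal number, Mcm5 differed by 0.29 for replicate 1 and by 0.29 for replicate 2. In WT cells Mcm5 measured 3.39 and 3.38 after stimulation and 2.80 and 2.97 in medium, with no overlap. Its log2 difference was 0.29 ± 0.28 in KO cells (adjusted p = 0.574) and 0.50 ± 0.28 in WT cells (adjusted p = 0.286). Mcm7 had -0.29 ± 0.13 in KO cells and -0.28 ± 0.13 in WT cells, and Mcm6 had -0.16 ± 0.11 in each genotype. Mcm3 and Mcm4 lay between -0.10 and 0.14 in both genotypes.

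Other S phase genes also failed to pass the threshold. Cdt1, which loads the helicase, measured 4.67 and 4.56 on the KO stimulated arrays and 4.98 and 4.80 on the KO medium arrays. In WT cells it measured 4.75 and 4.78 after stimulation and 5.33 and 4.94 in medium. It was lower on every stimulated array, with log2 differences of -0.27 ± 0.16 in KO cells (adjusted p = 0.347) and -0.37 ± 0.16 in WT cells (adjusted p = 0.186). Pcna, the sliding clamp of DNA polymerases, had 0.15 ± 0.12 in KO cells and 0.18 ± 0.12 in WT cells. Rrm1, the large subunit of ribonucleotide reductase, had 0.27 ± 0.37 in KO cells and 0.22 ± 0.37 in WT cells.

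Counting genes whose stimulated and medium arrays did not overlap, KO cells had 3 higher (Mcm2, Mcm4, Pcna) and 4 lower (Mcm6, Mcm7, Cdt1, Cenpa). Of all genes, 22.9% were higher and 28.5% lower in this way in KO cells. WT cells had 8 of the 33 higher and 11 lower, against 27.4% and 42% of all genes. The 8 were Mcm2, Mcm4, Mcm5, Pcna, Rrm1, Uhrf1, Cdk1 and Aurka. Among the 11 lower were the 4 named for KO cells, Gins1 and 6 other mitosis genes (Ccnb2, Plk1, Birc5, Kif11, Kif20a, Tpx2). Each of these shares was below that of all genes. In KO cells the wide gap between the replicates for many of these genes, described below, makes overlap more likely.

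As a group, the 14 S phase genes had a median log2 difference with stimulation of 0.09 in KO cells and 0.02 in WT cells. The 19 mitosis genes had a median of -0.15 in KO cells and -0.10 in WT cells. The median of all genes was -0.08 in KO cells and -0.09 in WT cells. Mki67, which encodes the proliferation antigen Ki-67, had 0.16 ± 0.51 in KO cells and -0.10 ± 0.51 in WT cells. The 95% interval of the KO value, -1.08 to 1.41, is wide enough to hold more than a doubling or halving. That interval counts the gap between the KO replicates as spread. Stimulated minus medium for Mki67 was 0.08 within KO replicate 1 and 0.25 within replicate 2, though the labels do not pair these arrays. Kif20a, a kinesin of cytokinesis, had -0.37 ± 0.47 in KO cells and -0.33 ± 0.47 in WT cells.

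**Figure D2:**
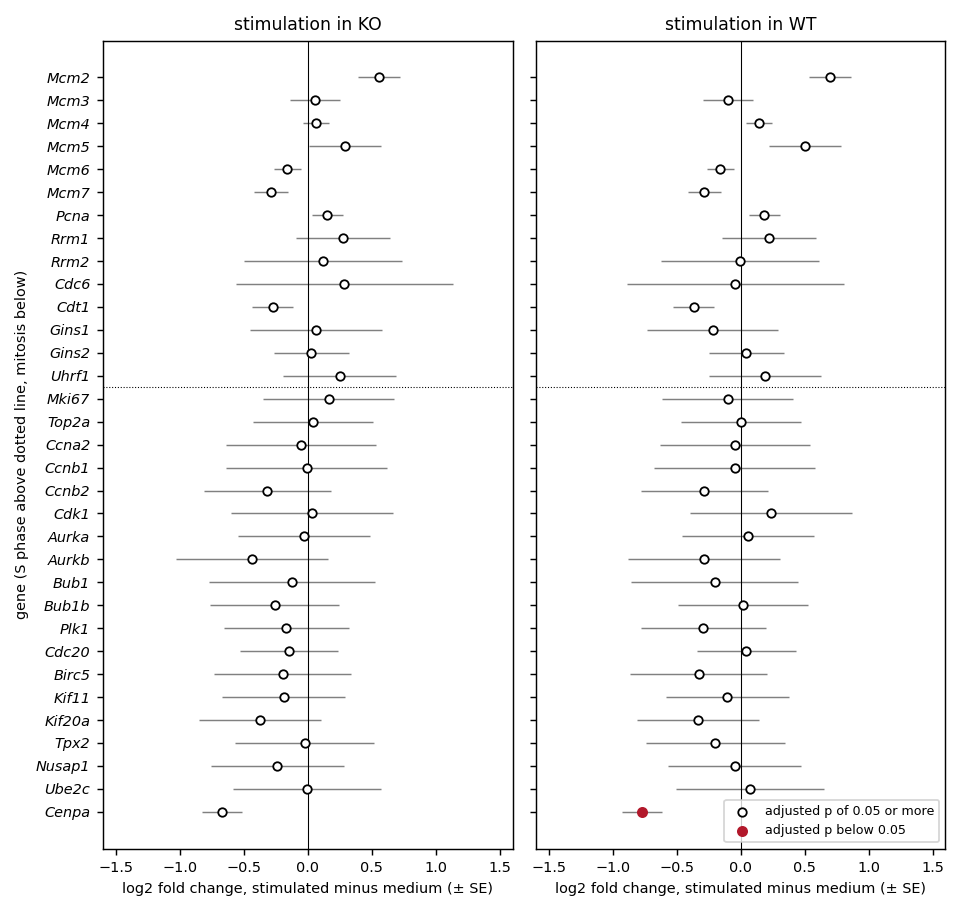
Log2 difference of stimulated minus medium arrays for each of the 33 genes in KO cells (left) and WT cells (right), with its standard error; filled points have an adjusted p below 0.05. Cenpa in WT cells is the only filled point, at -0.77, and most other genes lie within their standard error of 0.

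Other genes of replication, mitosis and G1 control were counted in the same way, beside 8.04% of all genes called in either direction in KO cells and 10.3% in WT cells. Of 50 further replication genes, 2 rose and 1 fell in KO cells, and 2 rose and 2 fell in WT cells. Pole2, an accessory subunit of DNA polymerase epsilon, measured 2.14 and 1.65 on the KO stimulated arrays and 0.06 and 0.61 on the KO medium arrays. In WT cells Pole2 measured 2.30 and 2.28 after stimulation and -0.26 and 0.04 in medium. Its log2 difference was 1.56 ± 0.25 in KO cells (adjusted p = 0.0177) and 2.40 ± 0.25 in WT cells (adjusted p = 0.00506). Pold2, a subunit of DNA polymerase delta, rose by 0.75 ± 0.13 in KO cells and 0.61 ± 0.13 in WT cells (adjusted p = 0.02335 and 0.0398). Timeless, which protects replication forks, had -0.75 ± 0.13 in KO cells and -1.03 ± 0.13 in WT cells (adjusted p = 0.0222 and 0.00937). Cdc7, the kinase that activates loaded helicases, had -0.33 ± 0.12 in KO cells (adjusted p = 0.147) and was called at -0.55 ± 0.12 in WT cells (adjusted p = 0.0398). The difference of these responses was 0.22 ± 0.17 and did not pass the test (adjusted p = 0.9999). The Cdc7 probe was well above background on all 8 arrays but dim. Its mean processed signal was 46.06, against 66.26 for Aurkb. The count of 3 replication genes in KO cells was 0 without KO medium replicate 1, and the count of 4 in WT cells was 0 without WT medium replicate 1.

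Of 52 further mitosis genes measured, 2 fell in each genotype, Cdc25b and Smc4. Cdc25b, a phosphatase that activates cyclin-dependent kinases, measured 3.21 and 2.63 on the KO stimulated arrays and 4.46 and 4.12 on the KO medium arrays. In WT cells it measured 2.72 and 2.99 after stimulation and 4.33 and 4.46 in medium. The log2 difference was -1.37 ± 0.23 in KO cells (adjusted p = 0.0216) and -1.54 ± 0.23 in WT cells (adjusted p = 0.0155). Smc4, a subunit of condensin, had -1.05 ± 0.21 in KO cells and -1.18 ± 0.21 in WT cells. In KO cells neither call held when 1 of the 4 medium arrays or KO stimulated replicate 2 was left out. In WT cells neither held without WT medium replicate 1 or either WT stimulated array. Over 20 alternatives the KO call of Cdc25b held in 12 and that of Smc4 in 9.

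Of 35 measured regulators of G1, E2F and DREAM, 2 rose and 1 fell in KO cells, and 3 rose and 1 fell in WT cells. Ccnd2, a D-type cyclin of G1, measured 4.94 and 5.33 on the KO stimulated arrays and 3.01 and 2.59 on the KO medium arrays. In WT cells Ccnd2 measured 5.04 and 5.01 after stimulation and 2.99 and 2.87 in medium. The groups lay far apart, with log2 differences of 2.34 ± 0.19 in KO cells (adjusted p = 0.00256) and 2.10 ± 0.19 in WT cells (adjusted p = 0.00350). Cdkn1a, an inhibitor of cyclin-dependent kinases, rose by 2.13 ± 0.34 in KO cells and 2.05 ± 0.34 in WT cells on its brightest probe. With the mean of all its probes the differences were 1.40 in KO cells and 1.01 in WT cells, and neither passed the test. Cdk4, a partner of D-type cyclins, had 0.56 ± 0.13 in KO cells (adjusted p = 0.0550) and 0.60 ± 0.13 in WT cells (adjusted p = 0.0420). Cdkn2d, an inhibitor of Cdk4, had -0.63 ± 0.14 in KO cells and -0.84 ± 0.14 in WT cells. The count of 3 in KO cells was between 1 and 4 with 1 array left out, and the count of 4 in WT cells was between 1 and 6. Ccnd2 kept its call under all 20 alternatives in WT cells and 19 of 20 in KO cells.

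The second question was whether Lsp1 deficiency changed these genes. None of the 33 was called in either condition, with a lowest adjusted p of 0.938 after stimulation and 0.738 in medium, and 0 had an unadjusted p below 0.05 in either condition. At that unadjusted threshold, 5% of all genes passed after stimulation and 5.71% in medium. Among all genes, 0.0198% were called lower in KO cells after stimulation and 0.00661% in medium, and 0 were called higher. The estimates were positive for 30 of the 33 genes in each condition. Of all 15140 genes, 6287 had a positive estimate after stimulation and 6075 in medium. The median KO minus WT log2 difference after stimulation was 0.18 for S phase genes and 0.66 for mitosis genes, against -0.04 for all genes. In medium it was 0.25 for S phase genes and 0.68 for mitosis genes, against -0.06 for all genes. Within each condition the 2 KO arrays differed widely from each other.

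The array values show where the positive estimates lay. Mki67 measured 3.22 and 4.53 on the KO stimulated arrays, against 3.21 and 2.97 on the WT stimulated arrays. In medium it measured 3.14 and 4.28 on the KO arrays, against 3.29 and 3.09 on the WT arrays. Replicate 2 was high in both KO groups, and replicate 1 lay beside the WT arrays. The log2 difference was 0.79 ± 0.51 after stimulation, with a 95% interval of -0.46 to 2.03, and 0.52 ± 0.51 in medium, with an interval of -0.73 to 1.77.

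**Figure D3:**
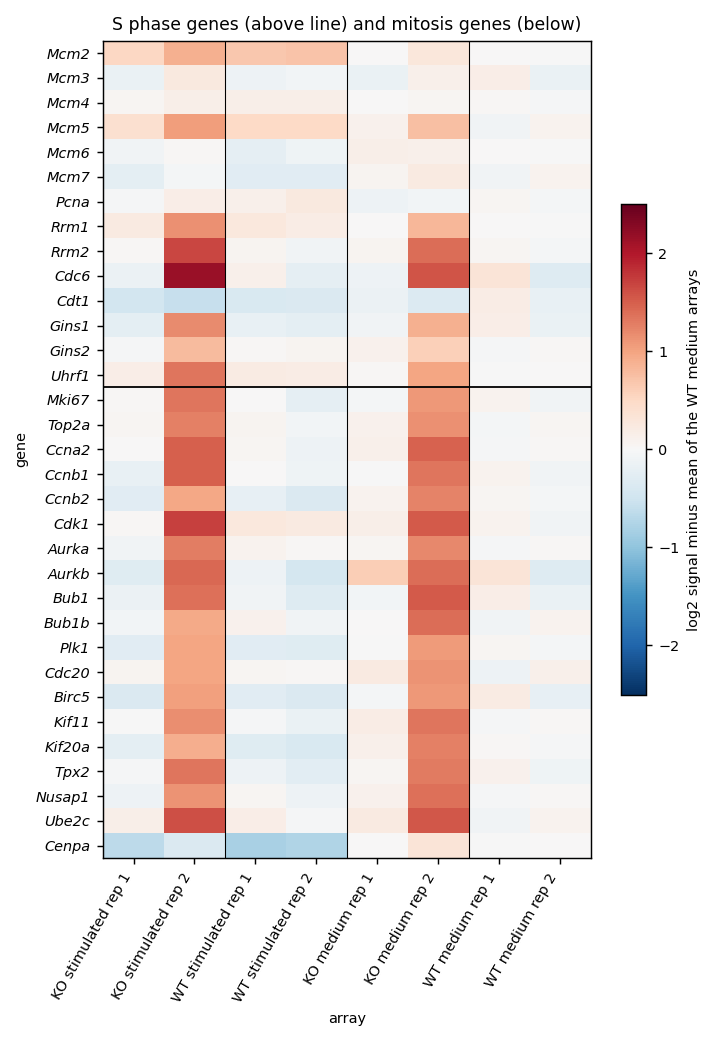
Log2 signal minus the mean of the WT medium arrays for the 14 S phase genes (above the line) and the 19 mitosis genes (below it) on each of the 8 arrays; red is higher and blue is lower. The columns of KO stimulated replicate 2 and KO medium replicate 2 are red for nearly all mitosis genes, while both replicate 1 columns of KO resemble the WT columns.

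Cdc6 had the widest gap between the KO replicates. It measured -2.56 and -0.26 on the KO stimulated arrays, against -2.28 and -2.63 on the WT stimulated arrays. In medium it measured -2.55 and -0.85 on the KO arrays, against -2.10 and -2.73 on the WT arrays. KO replicate 2 exceeded replicate 1 by 2.30 after stimulation and by 1.70 in medium, and replicate 1 lay between or beside the WT arrays. Rrm2, the small subunit of ribonucleotide reductase, measured 1.52 and 3.16 on the KO stimulated arrays, against 1.57 and 1.41 on the WT stimulated arrays. In medium Rrm2 measured 1.55 and 2.89 on the KO arrays, against 1.54 and 1.45 on the WT arrays.

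Gins1 and Uhrf1 shared this pattern. Gins1, a subunit of the GINS complex, measured -0.44 and 0.98 on the KO stimulated arrays, against -0.39 and -0.45 on the WT stimulated arrays. Uhrf1, which helps copy DNA methylation onto new strands, measured 0.72 and 1.88 on the KO stimulated arrays, against 0.75 and 0.73 on the WT stimulated arrays. Smaller gaps were seen for Rrm1, at 0.92 after stimulation and 0.82 in medium, for Gins2, at 0.82 and 0.49, and for Mcm5, at 0.65 in each condition. Mcm4, Mcm6, Mcm7, Pcna and Cdt1 had gaps between -0.18 and 0.19. Mcm2 and Mcm3 lay between, at 0.38 and 0.42 after stimulation, so the S phase genes ran from a wide gap to nearly none.

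The mitosis genes were more alike. Ube2c, the ubiquitin-conjugating enzyme of the anaphase-promoting complex, measured 1.38 and 2.84 on the KO stimulated arrays, against 1.39 and 1.20 on the WT stimulated arrays. In medium it measured 1.45 and 2.78 on the KO arrays, against 1.13 and 1.31 on the WT arrays. Its log2 difference between genotypes was 0.81 ± 0.58 after stimulation, with a 95% interval of -0.60 to 2.22, and 0.89 ± 0.58 in medium, with an interval of -0.52 to 2.30. These intervals hold 0 and also differences of more than 4-fold.

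Cdk1, the kinase that drives entry into mitosis, measured -0.87 and 0.80 on the KO stimulated arrays, against -0.65 and -0.68 on the WT stimulated arrays. Ccnb1, the cyclin that partners it, measured 0.26 and 1.94 on the KO stimulated arrays, against 0.45 and 0.34 on the WT stimulated arrays. For both genes replicate 1 of KO was the lowest of the 4 arrays and replicate 2 the highest. In medium Cdk1 measured -0.77 and 0.64 on the KO arrays, against -0.82 and -0.99 on the WT arrays. Ccnb1 in medium measured 0.43 and 1.78 on the KO arrays, against 0.53 and 0.35 on the WT arrays. The gap between the KO replicates was 1.67 for Cdk1 and 1.68 for Ccnb1 after stimulation. It was 1.40 for Cdk1 and 1.36 for Ccnb1 in medium.

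The remaining cyclins and kinases followed. The gap between the KO replicates after stimulation was 1.49 for Ccna2, the cyclin of S and G2 phase, and 1.25 for Ccnb2. For the kinases it was 1.35 for Aurka, which acts at spindle poles, 1.28 for Plk1, and 1.75 for Aurkb, the kinase of the chromosomal passenger complex. Birc5, another member of that complex, had 1.39. Among checkpoint and anaphase genes it was 1.52 for Bub1, 1.02 for Bub1b and 0.92 for Cdc20. Spindle genes had 1.17 for the motor Kif11, 1.16 for Kif20a, 1.37 for Tpx2, an activator of Aurora A, and 1.25 for Nusap1. Top2a, which untangles replicated DNA, had 1.22.

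In medium the same 14 genes had gaps between 0.77 for Aurkb and 1.61 for Bub1. Aurkb was also the only gene whose KO replicate 1 lay more than 0.25 from the WT mean in medium, at 0.62 above it. It measured -4.26 and -3.49 on the KO medium arrays, against -4.55 and -5.21 on the WT medium arrays, close to background. Cenpa had the smallest gap of the mitosis genes, at 0.28 after stimulation and 0.32 in medium.

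KO replicate 2 was the highest of the 4 arrays of its condition for 30 of the 33 genes after stimulation and 29 in medium, including all 19 mitosis genes each time. It lay over 2-fold above each of the other 3 arrays for 20 of the 33 after stimulation (4 S phase, 16 mitosis), against 4.62% of all genes. In medium the count was 16 of 33 (2 S phase, 14 mitosis), against 3.74% of all genes. The median of KO replicate 2 minus replicate 1 for mitosis genes was 1.31 after stimulation and 1.15 in medium. For S phase genes it was 0.53 and 0.39, and for all genes -0.02 and -0.13, in the same order of conditions. Across the 33 genes the 2 gaps had a Pearson r of 0.924 and a Spearman rho of 0.824. This is a description over genes that are not independent, from 2 pairs of arrays with the same replicate numbers.

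KO replicate 1 lay within 0.25 of the WT mean for 33 of the 33 genes after stimulation and 32 in medium, against 78% and 77.7% of all genes. Both KO arrays were above both WT arrays for 9 of the 33 genes after stimulation (2 S phase, 7 mitosis) and for 17 in medium (6 S phase, 11 mitosis). Of all genes 13.4% did so after stimulation and 12.9% in medium. KO replicate 2 was already the highest array for most of the 33 genes, and far less often among all genes. The count of the 33 therefore turned on whether replicate 1 passed the WT arrays by any margin, and these shares are not like for like. Without KO replicate 2 the median KO minus WT difference of mitosis genes was 0.03 after stimulation and 0.09 in medium, and that of S phase genes was -0.07 and 0.02. No gene of the 33 was called then, and the lone KO array was assumed to vary like the other groups.

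**Figure D4:**
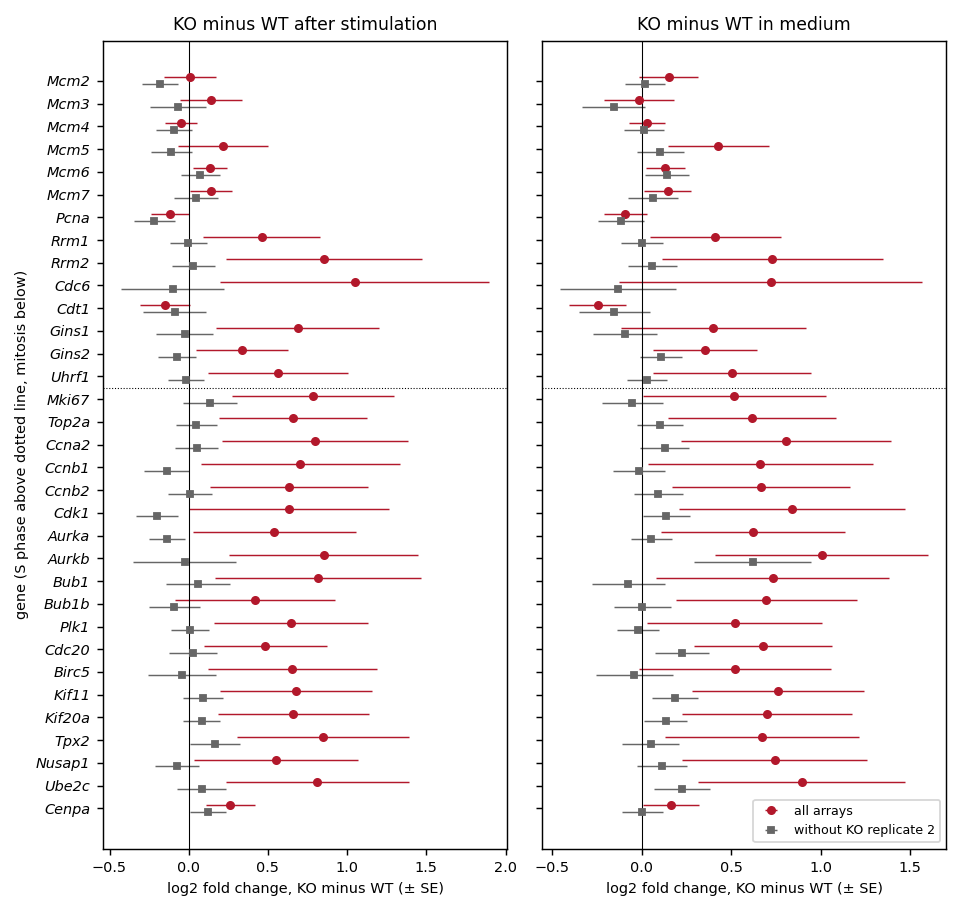
Log2 difference of KO minus WT for each of the 33 genes after stimulation (left) and in medium (right), with its standard error, from all arrays (red circles) and without KO replicate 2 (grey squares). With all arrays nearly every mitosis gene lies between 0.4 and 1.01, and without KO replicate 2 most lie within 0.25 of 0.

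The residual spread was correspondingly uneven. The median residual SD was 0.27 for S phase genes and 0.63 for mitosis genes, against 0.18 for all genes. The root mean square SD of mitosis genes was 0.941 in the KO stimulated group, against 0.109 in the WT stimulated group. In medium it was 0.837 in the KO group, against 0.166 in the WT group. Both KO groups thus spread more than either WT group. Without KO replicate 2, the WT stimulation response had 3 called genes: Cenpa was lower (adjusted p = 0.0172), and Mcm2 (adjusted p = 0.0195) and Mcm5 (adjusted p = 0.0471) were higher. The KO response had 0 called, with a lowest adjusted p of 0.102.

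Markers of some other cell types were high on the same 2 arrays, and those of others were not. After stimulation and in medium, KO replicate 2 was the highest of its 4 arrays for 9 and 8 of 9 megakaryocyte and platelet markers. For monocyte, macrophage and dendritic cell markers it was 10 and 11 of 15. For plasma cell and germinal centre markers it was 1 and 5 of 7, for natural killer cell markers 1 and 0 of 10, and for B cell markers 0 of 16 each time. Of all 15140 genes it was 4749 and 3418. The summed level of 14 granulocyte precursor markers, in units of the array's 75th percentile, was 211 and 481 on the KO stimulated arrays, against 232 and 224 on the WT stimulated arrays. In medium it was 186 and 693 on the KO arrays, against 177 and 166 on the WT arrays. A sum adds signals of different probes, so the brightest probes weigh most in it. The median of KO replicate 2 minus replicate 1 over the 14 markers was 2.72 after stimulation and 3.29 in medium. Srgn, a granule proteoglycan and the marker with the highest mean, differed little, at 7.34 and 7.57 on the KO stimulated arrays, against 7.50 and 7.49 on the WT stimulated arrays. Mpo, a granule enzyme of neutrophil precursors, measured 3.61 and 6.67 on the KO stimulated arrays, against 3.59 and 3.11 on the WT stimulated arrays. Ctsg, a granule protease, measured 2.71 and 6.17 on the KO stimulated arrays, against 2.70 and 2.25 on the WT stimulated arrays. Of these 14 markers, 12 lay over 2-fold above the other 3 arrays on KO replicate 2 in each condition.

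Erythroid markers, 17 measured, summed to 56.1 and 393 on the KO stimulated arrays, against 109.5 and 63.2 on the WT stimulated arrays. In medium they summed to 49.0 and 317 on the KO arrays, against 93.2 and 58.8 on the WT arrays. The median of KO replicate 2 minus replicate 1 was 3.12 after stimulation and 2.29 in medium. Hbb-bt, an adult beta-globin with near-identical copies that the probe may share, measured 3.99 and 7.39 on the KO stimulated arrays, against 5.28 and 4.23 on the WT stimulated arrays. Hba-a1 and Car2 were likewise highest on KO replicate 2, at 7.13 and 4.89 after stimulation. Of the 17 markers, 14 lay over 2-fold above the other 3 arrays on KO replicate 2 after stimulation and 11 in medium.

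The 12 mature neutrophil markers measured summed to 129.6 and 239.5 on the KO stimulated arrays, against 123 and 127 on the WT stimulated arrays. In medium they summed to 152 and 341 on the KO arrays, against 216 and 144 on the WT arrays. The median of KO replicate 2 minus replicate 1 was 4.56 after stimulation and 4.44 in medium. Csf3r, the receptor for granulocyte colony-stimulating factor and the marker with the highest mean, went the other way, at 6.96 and 6.63 on the KO stimulated arrays, against 6.84 and 6.92 on the WT stimulated arrays. In medium Csf3r measured 7.17 and 6.75 on the KO arrays, against 7.66 and 7.07 on the WT arrays. S100a9, a calcium-binding protein abundant in neutrophils, measured 0.61 and 6.36 on the KO stimulated arrays, against 1.95 and 1.33 on the WT stimulated arrays. S100a8, its partner, measured -0.40 and 5.14 on the KO stimulated arrays, against 0.57 and 0.09 on the WT stimulated arrays. KO replicate 2 was the highest array for 10 of the 12 markers after stimulation and 11 in medium, and over 2-fold above the other 3 arrays for 8 and 9.

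T cell markers summed to 1027 and 891 on the KO stimulated arrays, against 977.5 and 1038 on the WT stimulated arrays. In medium they summed to 1208 and 897.9 on the KO arrays, against 1129 and 1137 on the WT arrays. The median of KO replicate 2 minus replicate 1 was -0.29 after stimulation and -0.42 in medium. Only markers that passed the filter on signal above background were counted as measured, so none could be below background on all 8 arrays. Measured were 14 of 14 granulocyte precursor, 17 of 20 erythroid, 12 of 16 mature neutrophil and 18 of 18 T cell markers. Of these, 13, 15, 7 and 18 were well above background on all 8 arrays, in the same order. Among all genes it was 13457 of 15140. The part of any of these cell types in the levels of the 33 genes was not tested.

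**Figure D5:**
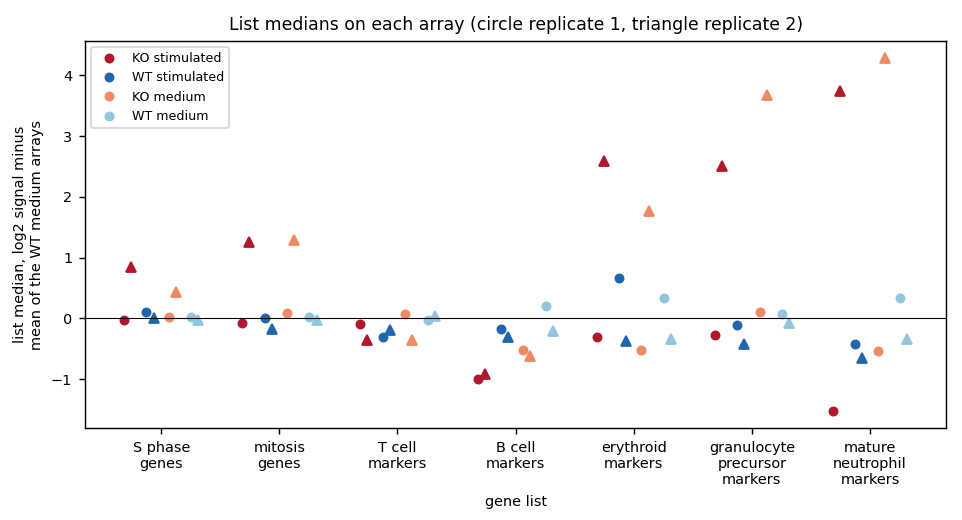
Median over each list of log2 signal minus the mean of the WT medium arrays, on each of the 8 arrays (circles replicate 1, triangles replicate 2, colours by group). The KO triangles stand above all other points for S phase and mitosis genes and for erythroid, granulocyte precursor and mature neutrophil markers, and not for T or B cell markers.

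The last question was whether the stimulation response differed between genotypes. Of the 33 genes 0 were called for the difference of the responses, KO minus WT, and 0 had an unadjusted p below 0.05, while 0.00661% of all genes were called lower. The lowest adjusted p was 0.9999. The median difference was 0.02 for S phase genes and -0.03 for mitosis genes, against 0.03 for all genes. Cenpa had 0.10 ± 0.22 (95% interval -0.44 to 0.64) and Mcm2 had -0.14 ± 0.23 (95% interval -0.71 to 0.42). The high KO replicate 2 arrays stand on both sides of this comparison. Within KO replicate 2 alone Cenpa differed by -0.69 between its stimulated and medium arrays, and within replicate 1 by -0.66. Mcm2 differed by 0.61 within replicate 2 and by 0.50 within replicate 1. For both genes the response was of like size on either KO array pair, though the labels do not say that equal numbers mark the same animal.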

How the data were processed

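Each array's spot intensities come from the Feature Extraction program of Agilent (version 10.7.1.1, as the file headers state); the deposited processed signal is an intensity after that program's background subtraction. The deposited value table holds the median spot intensity unchanged, linear and uncentred, and served as an alternative. Control spots (3671 of 62976) and outlier spots were dropped, repeated spots averaged, and log2 signal minus each array's 75th percentile analysed. A probe was kept where some group had it well above background on both its arrays (37259 of 55681). Accessions named 26056 probes through a RefSeq table; the headers name mm9, so no coordinates came from it. limma 3.58.1 (R 4.3.3) fitted 4 group means to 8 arrays (4 residual and 2.12 prior degrees of freedom) and was tested on simulated data. All arrays share 1 slide and 1 scan, where stimulation follows the row and genotype and replicate the column, and these cannot be told apart from position. The number of arrays limits precision.

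The 33 genes, the pathway and marker lists and the tests were chosen with earlier results of these data known. All members were described; from the further replication, mitosis and G1 lists the 4 largest called genes each way per contrast were named, and, from the marker lists set beside the results, those among the 3 highest means. The alternatives covered background correction, scaling, filters, probe choice, weights, replicate blocks and leaving out arrays.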

Additional observations from a re-analysis of the deposited data

How the results depend on the processing

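Over 20 alternative settings, 3171 of 3196 values of the 33 genes kept their side of the threshold, 4 lost it, 21 gained it and 0 called values changed sign; 245 uncalled values changed sign. The 4 losses were Cenpa in WT cells without each WT array in turn. The count for stimulation in KO cells, 0 as reported, was 1 (Cenpa lower) with normexp on the median signal (an alternative chosen after seeing the data), with probes detected on all arrays, with the deposited value table and with the replicate block, and 2 (Mcm2 higher as well) with the replicate block within genotype. The count in WT cells, 1 as reported, was 2 (Mcm2 higher, Cenpa lower) with those first 4 settings, with median scaling, with no filter and with array weights, and 3 with the replicate block within genotype, with only the groups compared and without KO replicate 2. It was between 0 and 2 with single arrays left out (0 without any 1 of the 4 WT arrays). The cause was not tested. The count for KO minus WT was 0 under every setting run, the replicate block included, as was that for the difference of responses.

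The S phase median for stimulation in WT cells, 0.02, was 0.10 with normexp, 0.0797 with median scaling, 0.09 with the deposited table and -0.0523 with the mean of all probes; with single arrays left out it was -0.001 to 0.11, and the mitosis median was -0.17 to 0.0065. With single arrays left out, the medians for stimulation in KO cells were -0.22 to 0.53 (S phase) and -0.80 to 0.50 (mitosis). The KO minus WT medians were then -0.07 to 0.44 and 0.03 to 1.29 after stimulation and 0.0155 to 0.44 and 0.093 to 1.30 in medium. The medians of the difference of responses were -0.37 to 0.24 and -0.67 to 0.65. The ends of these KO ranges came from leaving out a KO array.

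Same-numbered arrays deviated together across all genes between the KO groups (r = 0.742) and weakly between the WT groups (0.161). They did not do so across genotypes (-0.24 to -0.06), so the numbers were not taken to pair samples across genotypes. That does not bear on pairing within KO cells, where r was 0.924 over the 33 genes. The main fit left the KO arrays unpaired and so counted their shared gap as spread. For stimulation in KO cells it called 0 of the 33 genes, against 2 with the replicate block within genotype. Whether same-numbered KO arrays share a source was not tested. Of the other pathway calls, Pole2 held under 18 of 20 settings in KO cells and 19 in WT cells. In the same order, Pold2 held under 12 and 13, Timeless under 12 and 17, and Cdkn1a under 14 and 15. Cdc25b held under 12 and 16, Smc4 under 9 and 17, and Cdkn2d under 7 and 16. In WT cells Cdk4 held under 14 and Cdc7 under 8. Normexp on the mean signal was not run because the scanner files used here hold no such column. Signal over background limits Aurkb, and the Cdc7 probe was dimmer still.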

Other observations

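Of the 33 genes, 8 had more than 1 RefSeq probe, giving 11 probes beside those reported. Second probes gave like gaps between the KO replicates for most: after stimulation KO replicate 2 exceeded replicate 1 by 2.04 for Cdc6, by 1.26 for Mki67 and by 1.52 for Ube2c. A dim Cdk1 probe, well above background on 7 arrays, gave 0.51 after stimulation and 0.02 in medium, against 1.55 and 1.56 on another Cdk1 probe.

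Among the further mitosis genes, KO replicate 2 was the highest of its 4 arrays for 48 of 52 in each condition, and over 2-fold above the other 3 for 20 of 52 after stimulation and 18 in medium. The further replication genes had 5 and 3 of 50 over 2-fold above, and the G1, E2F and DREAM regulators 5 and 3 of 35. Among all genes, KO replicate 2 was highest for 4749 and 3418 of 15140, and over 2-fold above for 4.62% and 3.74%. B cell markers had another pattern: all 16 had a negative KO minus WT estimate in each condition. Of all 15140 genes, 8853 had a negative estimate after stimulation and 9065 in medium. The B cell medians were -0.59 after stimulation and -0.56 in medium, and 0 markers were called by limma after adjustment. At an unadjusted p below 0.05 the counts were 10 and 9, against 5% and 5.71% of all genes.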
